A study of Homo sapiens with 12 samples.

Results

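Fatty acid oxidation and propionate catabolism were followed through 47 genes, chosen by symbol from the 58278 genes listed for each library. The members were the carnitine shuttle, the acyl-CoA synthetases and dehydrogenases, the remaining enzymes of β-oxidation, electron transfer, the propionyl-CoA pathway, ketone body enzymes and 3 regulators. The β-oxidation enzymes include the peroxisomal EHHADH and ACAA1. All 47 were found and passed the filter on low counts, which kept 24342 genes. RNA came from HK2 cells, an immortalised human proximal tubular epithelial line, so the results describe 1 cell line in culture. Ctrl cells were untreated, and TN cells received 5 ng/ml TNF-α over 3 h. The short-chain fatty acids (SCFAs) were 15 mM propionate and 3 mM butyrate, each present over 24 h, before TNF-α in PRTN and BUTN and after it in TNPR and TNBU. Each of the 6 groups held 2 biological replicates. The p-values rest on the spread between the 2 cultures of a group, pooled over all 6 groups and moderated across genes. Every SCFA group also received TNF-α, and the cells of TNPR and TNBU had 24 h more after TNF-α than those of TN, so that SCFA and added time cannot be told apart there. The general treatment text of the labels names thapsigargin and JQ1, whereas the labels of single libraries name TNF-α and the SCFAs, which were used here.

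Long-chain fatty acids are activated to acyl-CoA, carried into mitochondria by carnitine and shortened in repeated cycles by a dehydrogenase, a hydratase, a second dehydrogenase and a thiolase. Butyrate enters this route as a short-chain acyl-CoA, whereas propionate becomes propionyl-CoA, which is carboxylated, epimerised and rearranged with the help of a cobalamin cofactor into succinyl-CoA for the citric acid cycle. Proximal tubular cells are known for their reliance on fatty acid oxidation as a source of energy.

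The estimated counts summed to between 27269986 and 33851130 per library. Levels are given as CPM, the count relative to library size scaled with TMM factors, and the libraries of a group in the order of their replicate numbers. In every library 43 of the 47 members had at least 50 counts, and 4 (CPT1C, PDK4, ACADL and ACSS3) did not. Of 10 kidney epithelial markers, 8 had at least 1 CPM in every library, and their sum lay between 3400 and 4690 CPM. From TN to the SCFA groups, mean CPM fell for PAX8 (403, then 131 to 158) and CDH2 (308, then 145 to 155). EPCAM fell as well (57.1, then 15.3 to 22.1). Rises were seen for KRT8 (725, then 1090 to 1430), KRT18 (355, then 565 to 723) and KRT19 (4.53, then 82.4 to 119). CDH1 (0.109, then 9.94 to 14.1) and PAX2 (0.127, then 0.623 to 0.981) rose too, and KRT7 and VIM moved in both directions. Of 11 markers of differentiated proximal tubule, 3 had at least 1 CPM in every library, and the transporter gene SLC22A6 was at 0 throughout. Their sum was 226 to 228 CPM in Ctrl, 184 to 212 in TN and 74.4 to 95.9 in the SCFA groups, and this fall was that of GGT1 alone (179 to 221 CPM without SCFA, 60 to 74 with it). Among the others, 5 were higher in every SCFA library than without SCFA, AQP1 (0.359 to 0.721 CPM, then 5.98 to 15.1), CUBN, ANPEP, LRP2 and HNF4A, and 5 overlapped. The sum of 7 fibroblast markers was 52.9 to 59.8 CPM without SCFA and 205 to 256 with it, carried by COL1A1 and LUM, while COL1A2 stayed at or under 0.438 CPM. The sum of 6 endothelial markers was 0.275 to 0.467 CPM without SCFA and 2.7 to 4.47 with it, and 1 of 10 leukocyte markers, CD68, reached 1 CPM in every library. The part of these shifts in the results below was not tested.

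**Figure D1:**
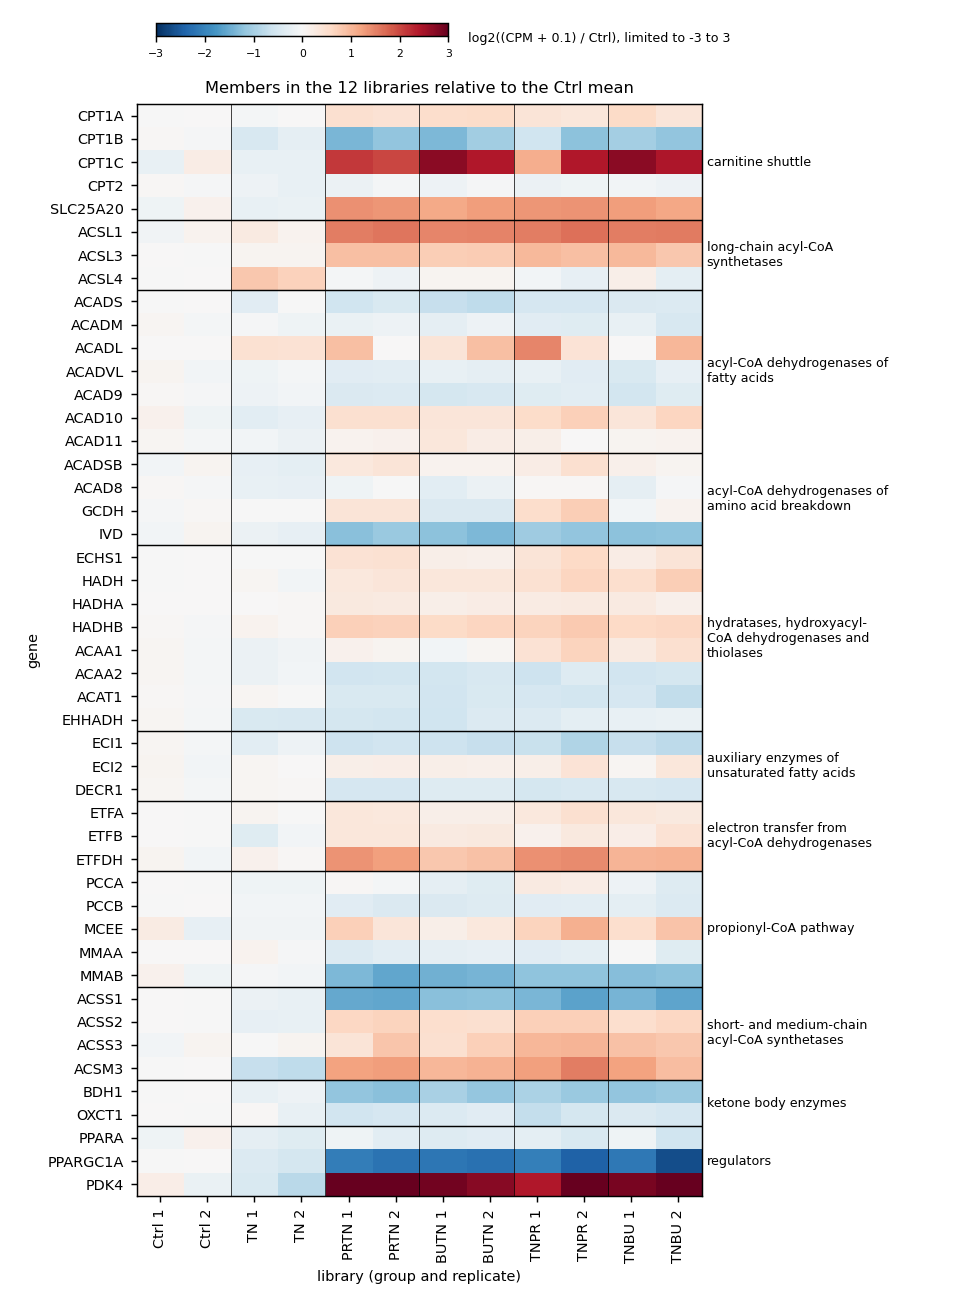
Each row is 1 of the 47 genes, each column 1 of the 12 libraries, and the colour is log2 of (CPM + 0.1) relative to the mean of the 2 Ctrl libraries, limited to 3 in either direction. The 8 SCFA libraries share a pattern in which PDK4 and CPT1C are high and PPARGC1A, MMAB and ACSS1 are low, and TN differs from Ctrl most visibly in ACSL4.

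The effect of TNF-α alone was read from TN and Ctrl. Calls required a change of over 1.5-fold and an adjusted p under 0.05 in limma-voom. By that rule 1 of 47 members (2.13%) was called in TN vs Ctrl, against 1.3% of all genes tested, a share near that of all genes. The gene was ACSL4, a synthetase that prefers arachidonic acid and related polyunsaturated chains. ACSL4 stood at 202 and 208 CPM in Ctrl and at 358 and 333 CPM in TN, so the groups did not overlap. Its rise was 1.69-fold (log2 0.75, SE 0.112, adjusted p = 0.0026 in limma-voom).

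Several members had lower values in TN without being called. ACSM3, a medium-chain acyl-CoA synthetase that can act on butyrate, stood at 3.45 and 3.51 CPM in Ctrl and at 2.1 and 2.01 in TN (log2 -0.76, SE 0.213, adjusted p = 0.0786 in limma-voom). PPARGC1A, which encodes the mitochondrial coactivator PGC-1α, stood at 149 and 153 CPM in Ctrl and at 113 and 105 in TN (log2 -0.47, SE 0.119, adjusted p = 0.0508). EHHADH, the peroxisomal bifunctional enzyme, passed the adjusted p (0.0107) with a change under 1.5-fold (log2 -0.47). All TN libraries lay below all Ctrl libraries for 25 members and above them for 4, where 23.8% and 23.1% of all genes tested did so. The median log2 fold change was -0.12 over the members and -0.01 over all genes. For 36 members the 95% interval of the change lay within 1.5-fold in either direction.

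The SCFA groups are compared below with TN, and all 4 comparisons share the same 2 TN libraries, so their agreement is not independent. In PRTN, 12 members (25.5%) were called higher and 7 (14.9%) lower, where 23.9% and 16.7% of all genes were. In BUTN, 9 members (19.1%) rose and 7 (14.9%) fell, against 23.1% and 14.8% of all genes. In TNPR, 15 members (31.9%) rose and 6 (12.8%) fell, against 24.9% and 16.9%. In TNBU, 12 members (25.5%) rose and 8 (17%) fell, against 25.0% and 16.5%. CPT1C and ACADL passed the filter only through the SCFA groups. Of the other 45 members, 11, 8, 14 and 11 rose and 7, 7, 6 and 8 fell in PRTN, BUTN, TNPR and TNBU. The shares of members called were thus within a few percentage points of those over all genes kept, apart from the rises in TNPR. The genes kept include many with few counts, whereas most members had at least 50 in every library. Shares over genes with like counts were not computed. Leaving out any 1 library of PRTN or BUTN gave 10 rather than 6 members lower in TNPR, the additions being ACAT1, CPT1B, DECR1 and ECI1, which stood just under the threshold with all libraries (log2 -0.56, -0.54, -0.55 and -0.55). The rises there ranged from 10 to 16 over the libraries left out. The median log2 fold change of the members was 0.14, 0.10, 0.25 and 0.09 for PRTN, BUTN, TNPR and TNBU, beside 0.09, 0.08, 0.12 and 0.09 over all genes. Scaling by library size alone would raise the latter to 0.24, 0.23, 0.29 and 0.29, so fold changes are relative to the TMM scaling. With the default filter of edgeR, which kept 19420 genes, the median over all genes was 0.00, -0.01, 0.03 and 0.00. Scaled by library size alone, 12 members rose and 6 fell in BUTN, and 16 rose and 6 fell in TNBU, so that rises made up 66.7% and 72.7% of the calls there, beside 56.2% and 60% with TMM factors. In bulk RNA, fewer cells of a kind and less RNA per cell cannot be told apart.

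**Figure D2:**
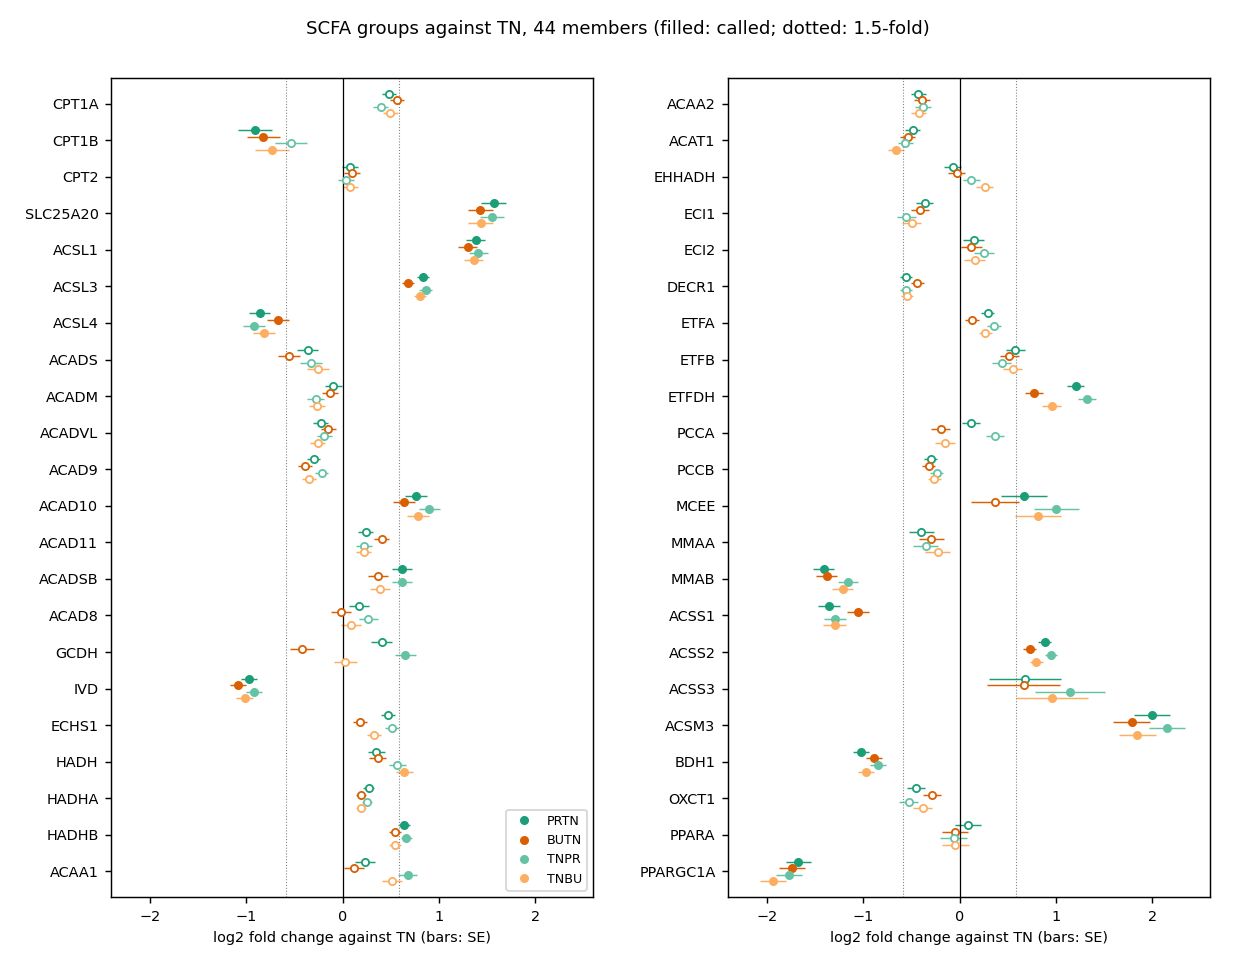
Points give the log2 fold change of 44 members against TN in the 4 SCFA groups, with bars of 1 standard error, filled where called, and dotted lines at 1.5-fold. PDK4, CPT1C and ACADL are left out because TN held 3 counts or fewer. SLC25A20, ACSL1 and ACSM3 sit far to the right in every group, and PPARGC1A, MMAB and ACSS1 far to the left.

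Promoters of 4 members around which the results turn are shown, as 250 bases before and 50 after the annotated start, from RefSeq on GRCh38.p14. PDK4 had the largest rise among members with at least 1 CPM in the SCFA groups, MMAB fell beside a neighbouring gene that did not, HADHB starts close to HADHA on the other strand, and GCDH was the member called between propionate and butyrate. The windows are chr7:95596467-95596766, minus strand for PDK4, chr12:109573455-109573754, minus strand for MMAB, chr2:26244689-26244988, plus strand for HADHB, and chr19:12890879-12891178, plus strand for GCDH. Capitals mark the GC box, GGGCGG on either strand, so that CCGCCC is the same motif on the other strand.
PDK4: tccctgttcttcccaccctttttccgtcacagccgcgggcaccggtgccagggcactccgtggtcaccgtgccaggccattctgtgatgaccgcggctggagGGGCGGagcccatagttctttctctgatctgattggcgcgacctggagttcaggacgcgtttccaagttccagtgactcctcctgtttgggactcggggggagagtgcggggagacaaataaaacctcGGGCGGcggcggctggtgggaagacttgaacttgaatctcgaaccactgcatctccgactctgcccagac
MMAB: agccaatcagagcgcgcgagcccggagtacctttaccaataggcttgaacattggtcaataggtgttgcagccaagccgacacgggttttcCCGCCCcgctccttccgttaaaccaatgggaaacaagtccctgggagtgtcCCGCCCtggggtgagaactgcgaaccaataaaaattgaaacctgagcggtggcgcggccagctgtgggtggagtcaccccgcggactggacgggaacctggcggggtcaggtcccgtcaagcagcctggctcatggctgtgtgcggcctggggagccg
HADHB: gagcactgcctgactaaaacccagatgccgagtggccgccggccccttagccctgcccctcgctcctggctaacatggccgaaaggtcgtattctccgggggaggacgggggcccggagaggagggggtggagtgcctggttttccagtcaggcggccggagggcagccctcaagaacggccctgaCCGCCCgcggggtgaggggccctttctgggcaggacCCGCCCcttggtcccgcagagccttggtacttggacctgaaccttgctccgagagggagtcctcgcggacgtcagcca
GCDH: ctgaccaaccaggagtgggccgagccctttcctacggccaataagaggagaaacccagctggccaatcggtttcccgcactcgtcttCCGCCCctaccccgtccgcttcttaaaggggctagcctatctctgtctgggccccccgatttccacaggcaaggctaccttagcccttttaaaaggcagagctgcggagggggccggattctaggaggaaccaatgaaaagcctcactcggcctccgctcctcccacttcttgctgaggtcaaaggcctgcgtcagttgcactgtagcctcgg
PDK4, MMAB and HADHB hold 2 GC boxes each, and GCDH holds 1, which begins 163 bases before its start. The motif is common, being present in 44.6% of the 27305 promoters of the same length and in 33 of the 39 members with an entry. CPT1B, ACAD11, ACAA1, EHHADH, DECR1, ETFDH, ACSS3 and ACSM3 were not among these. A match describes the letters and is not evidence of binding.

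Among the regulators, PDK4 and PPARGC1A changed in opposite directions and PPARA was not called. PDK4 encodes a kinase that inhibits pyruvate dehydrogenase and is a known target of the PPAR receptors. It lies on chromosome 7 (95583499 to 95596516, minus strand, GENCODE release 44). Its level was 0.172 and 0.108 CPM in Ctrl and 0.0745 and 0.0359 CPM in TN. With SCFAs it was 1.85 and 1.89 CPM for PRTN, 1.66 and 1.47 for BUTN, 1.16 and 1.85 for TNPR, and 1.61 and 1.79 for TNBU. All 8 SCFA libraries lay above the other 4. TN held 3 counts in all, so the ratio of PRTN to TN was 34.1 with a counting interval of 11.4 to 167. It was 28.5 (9.48 to 140) for BUTN, 27.2 (9.04 to 134) for TNPR and 31.1 (10.3 to 153) for TNBU, and these intervals cover counting error only. Adjusted p lay between 2.81e-05 and 5.69e-05 in limma-voom.

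PPARGC1A was the member with the largest fall. It lies on chromosome 4 (23755041 to 23904089, minus strand). From 113 and 105 CPM in TN it fell to 35.9 and 32.5 for PRTN, 33.4 and 32.0 for BUTN, 36.2 and 28.1 for TNPR, and 33.9 and 23.9 for TNBU. The 8 SCFA libraries did not overlap TN or Ctrl. The falls were 3.19-fold, 3.33-fold, 3.41-fold and 3.83-fold in that order (SE 0.131 to 0.136 on the log2 scale, adjusted p from 1.44e-07 to 3.29e-07 in limma-voom). PPARA, the receptor that drives fatty acid oxidation genes, stood at 22.9 and 21.6 CPM in TN and between 18.4 and 25.3 CPM in the SCFA libraries. Its log2 fold changes of 0.09, -0.05, -0.06 and -0.04 had intervals reaching from -0.37 to 0.39.

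In the carnitine shuttle, the carrier rose and the liver-type transferase changed by less than the threshold. SLC25A20, the carnitine-acylcarnitine translocase (chromosome 3, 48856926 to 48898904), stood at 3.72 and 3.77 CPM in TN. It reached 11.4 and 10.9 CPM for PRTN, 9.7 and 10.5 for BUTN, 10.9 and 11.1 for TNPR, and 10.5 and 9.76 for TNBU, with no overlap. These were rises of 2.97-fold, 2.69-fold, 2.93-fold and 2.7-fold (SE 0.128 to 0.131 on the log2 scale, adjusted p from 4.75e-07 to 1.43e-06 in limma-voom). CPT1A, the transferase regarded as the gate of mitochondrial uptake (chromosome 11, 68754620 to 68844410), stood at 55.4 and 58.7 CPM in TN. It was 81.4 and 78.0 CPM for PRTN, 83.8 and 84.8 for BUTN, 76.1 and 73.8 for TNPR, and 86.9 and 74.3 for TNBU. All 8 libraries were higher than TN and adjusted p was 0.000641 or less, but the log2 fold changes of 0.48, 0.56, 0.39 and 0.49 were under the 1.5-fold threshold. Scaled by library size alone, CPT1A would be called in PRTN (0.64), BUTN (0.72) and TNBU (0.69).

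The other transferases differed from CPT1A. CPT1B, the muscle-type enzyme, stood at 17.7 and 20.6 CPM in TN and at 9.46 and 10.9 for PRTN, 9.67 and 12 for BUTN, 16.3 and 10.5 for TNPR, and 12.1 and 10.9 for TNBU. It fell 1.88-fold in PRTN, 1.77-fold in BUTN and 1.66-fold in TNBU, while the change of log2 -0.54 in TNPR was not called. A read-through gene shares its exons, CHKB-CPT1B, whose count equalled 25.8% of that of CPT1B, so the split between them is uncertain. CPT1C, the form known from neurons, had 0 counts in TN and 1 in Ctrl over both libraries, and 26, 39, 21 and 35 counts in PRTN, BUTN, TNPR and TNBU. Against a floor of 3 counts over the TN group, it was 7.03-fold, 10.7-fold, 5.89-fold and 10.9-fold higher. The lower limits of the counting intervals against TN were 5.32, 8.28, 4.38 and 8.39. CPT1C passed the filter only through the SCFA groups. CPT2, the inner transferase, lay between 19.4 and 23.5 CPM in all 12 libraries.

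The long-chain acyl-CoA synthetases were each called in all 4 groups, in different directions. ACSL1 (chromosome 4, 184755595 to 184826818), the form tied to oxidation in liver and heart, stood at 9.79 and 8.62 CPM in TN. It was at 23.4 and 24.5 CPM for PRTN, 22.4 and 22.8 for BUTN, 23.5 and 25.4 for TNPR, and 23.4 and 23.8 for TNBU. The rises were 2.61-fold, 2.46-fold, 2.66-fold and 2.57-fold (adjusted p from 1.15e-07 to 3.14e-07 in limma-voom). ACSL3, found at the endoplasmic reticulum and lipid droplets, rose from 77.6 and 77.4 CPM in TN to between 123 and 144 CPM in the 8 SCFA libraries, or 1.6-fold to 1.82-fold.

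ACSL4, higher in TN than in Ctrl, was lower in every SCFA group than in TN. It stood at 358 and 333 CPM in TN, 197 and 183 for PRTN, 218 and 216 for BUTN, 193 and 173 for TNPR, and 231 and 168 for TNBU. The rise against Ctrl and the falls against TN rest on the same TN libraries. In PRTN and BUTN the SCFA came before TNF-α, so a fall from a raised level was not observed there. The falls were 1.82-fold, 1.59-fold, 1.89-fold and 1.76-fold (adjusted p from 1.45e-05 to 0.000221 in limma-voom). The fall in BUTN was under the threshold (log2 -0.52) with library size scaling. Against Ctrl, at 202 and 208 CPM, the log2 differences were -0.11, 0.08, -0.17 and -0.06, none of them called. ACSL4 lies on the X chromosome (109624244 to 109733403).

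**Figure D3:**
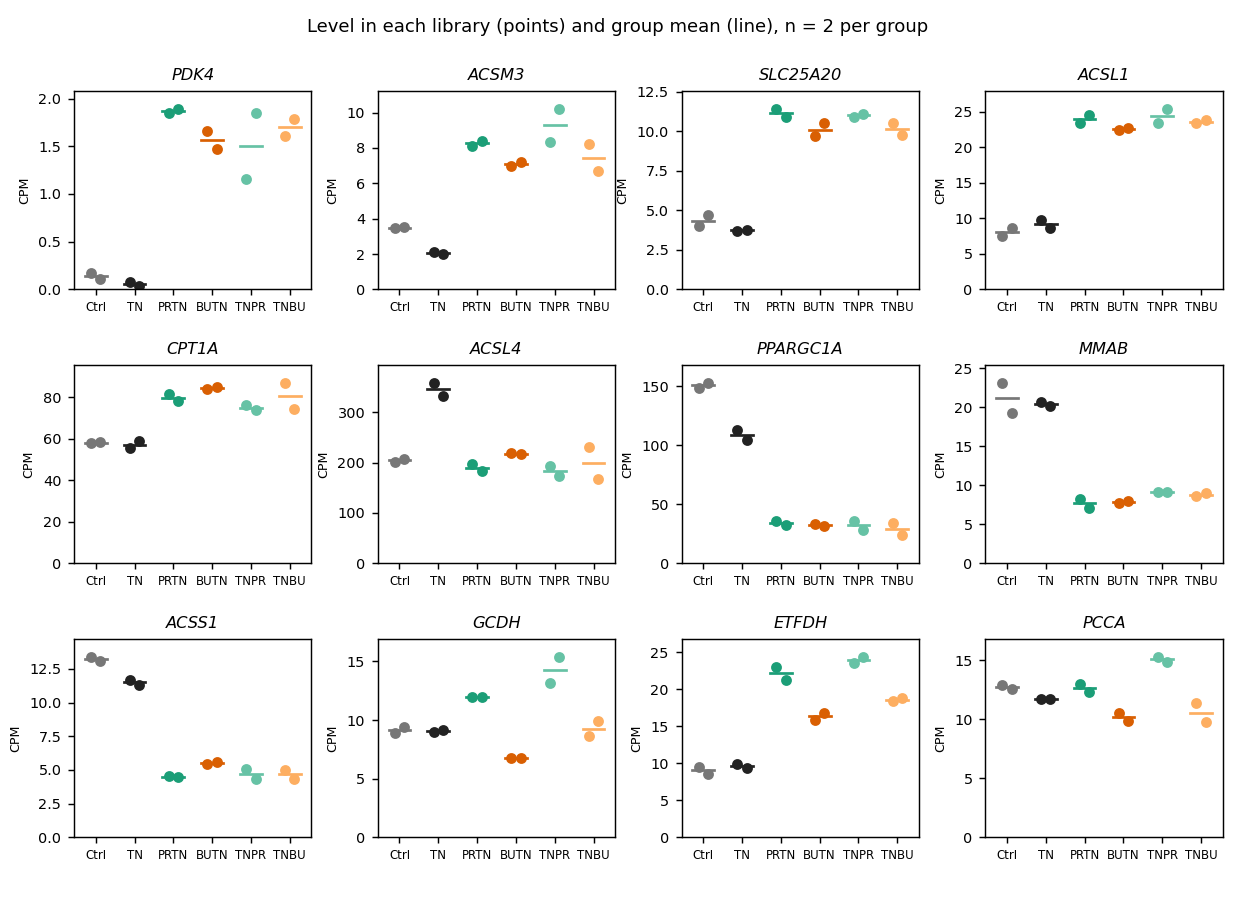
Each panel gives 1 gene, with CPM on a linear axis from 0, points for the 2 libraries of each group and a line for their mean. PDK4, ACSM3, SLC25A20 and ACSL1 are higher in every SCFA library than in Ctrl and TN, PPARGC1A, MMAB and ACSS1 are lower, ACSL4 is high in TN alone, and GCDH, ETFDH and PCCA are higher with propionate than with butyrate.

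Of the 7 acyl-CoA dehydrogenases that act on fatty acids, ACAD10 was called in every SCFA group and the classical chain-length enzymes in none. ACAD10, whose natural substrates are poorly known, stood at 21.2 and 22.1 CPM in TN and between 33.7 and 42.9 CPM in the SCFA libraries (log2 0.76, 0.64, 0.90 and 0.78). ACADM, the medium-chain enzyme, was 65.7 and 61.3 CPM in TN, 58.5 and 60.4 for PRTN, 56.0 and 60.2 for BUTN, 52.6 and 52.0 for TNPR, and 57.8 and 48.3 for TNBU. Its log2 differences of -0.09, -0.13, -0.28 and -0.26 were not called. RABGGTB shares exon bases with ACADM on the same strand, and its count equalled 121% of that of ACADM. RABGGTB had log2 differences of -0.576, -0.616, -0.668 and -0.855, called lower in BUTN, TNPR and TNBU, and a sharing of reads was not tested. ACADS, the enzyme for butyryl-CoA, was 10.9 and 13.7 CPM in TN, 9.09 and 10.0 for PRTN, 8.57 and 8.12 for BUTN, 9.77 and 9.72 for TNPR, and 10.2 and 10.4 for TNBU. Its log2 difference was -0.56 in BUTN (adjusted p = 0.00132 in limma-voom), just under 1.5-fold, and without TN replicate 1 it was called at -0.75. ACADVL, ACAD9 and ACAD11 were not called either. ACADL had at most 7 counts per group and no fold is given.

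The dehydrogenases of amino acid breakdown moved apart from each other. IVD, of leucine breakdown (chromosome 15, 40405485 to 40435947), fell in all 4 groups. It stood at 40.5 and 38.9 CPM in TN, 19.3 and 21.1 for PRTN, 19.4 and 18 for BUTN, 21.9 and 20.2 for TNPR, and 19.4 and 19.9 for TNBU, which are falls of 1.97-fold, 2.12-fold, 1.89-fold and 2.02-fold (adjusted p from 3.6e-07 to 1.05e-06 in limma-voom). ACADSB, the short/branched-chain enzyme, was called higher with propionate (log2 0.62 in both PRTN and TNPR) and had values of 0.37 and 0.39 with butyrate. ACAD8, of valine breakdown, was not called. GCDH is described with the comparison of propionate and butyrate.

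Of the 8 hydratases, hydroxyacyl-CoA dehydrogenases and thiolases, few passed the threshold. HADHB, the thiolase subunit of the mitochondrial trifunctional protein, stood at 124 and 119 CPM in TN, 190 and 188 for PRTN, 174 and 180 for BUTN, 184 and 200 for TNPR, and 176 and 178 for TNBU. It was called with propionate (log2 0.64 in PRTN and 0.66 in TNPR), and its values with butyrate (0.54 and 0.55) were just under the threshold. HADHA, the other subunit, stood at 242 and 246 CPM in TN and between 269 and 296 CPM in the SCFA libraries (log2 0.27, 0.19, 0.25 and 0.20). ACAA1 was called higher in TNPR (log2 0.68), HADH higher in TNBU (0.64) and ACAT1 lower in TNBU (-0.66), each with values of the same sign in the other groups. ECHS1, ACAA2 and EHHADH were not called against TN.

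Among the auxiliary and electron transfer enzymes, ETFDH stood out. It passes electrons from the acyl-CoA dehydrogenases to ubiquinone, and lies on chromosome 4 (158671968 to 158710742). From 9.93 and 9.3 CPM in TN it rose to 23.0 and 21.3 for PRTN, 15.9 and 16.8 for BUTN, 23.6 and 24.4 for TNPR, and 18.4 and 18.8 for TNBU. The rises were 2.3-fold, 1.7-fold, 2.5-fold and 1.94-fold (adjusted p from 1.12e-07 to 1.98e-05 in limma-voom). PPID and C4orf46 share exon bases with ETFDH on the other strand, and their counts equalled 157% and 164% of that of ETFDH. Their log2 differences against TN lay between -0.276 and -0.063, none called, and a sharing of reads was not tested. ETFA and ETFB, the partners of ETFDH, had log2 fold changes of 0.13 to 0.36 and 0.44 to 0.58, without a call. ECI1, ECI2 and DECR1, which handle unsaturated chains, were not called.

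In the propionyl-CoA pathway the carboxylase was not called and the cobalamin enzyme fell. PCCA, the biotin-bearing subunit of propionyl-CoA carboxylase (chromosome 13, 100089015 to 100530437), was 11.7 CPM in both TN libraries, 13.0 and 12.3 for PRTN, 10.5 and 9.86 for BUTN, 15.3 and 14.9 for TNPR, and 11.4 and 9.75 for TNBU. GGACT shares exon bases with PCCA on the other strand, and its count equalled 22.7% of that of PCCA. GGACT was called higher in all 4 groups (log2 1.90, 1.96, 1.90 and 2.13), and a sharing of reads was not tested. PCCB, the other subunit (chromosome 3, 136250340 to 136337896), was 45.7 CPM in both TN libraries and between 35.9 and 40.0 CPM in the SCFA libraries. All 8 lay below TN and adjusted p was 0.0102 or less in limma-voom, with log2 differences of -0.30, -0.32, -0.24 and -0.26 that were under the fold threshold. STAG1 shares exon bases with PCCB on the other strand, and its count equalled 110% of that of PCCB. STAG1 was called lower in all 4 groups (log2 -0.86, -0.78, -0.96 and -0.91), and a sharing of reads was not tested. MCEE, the epimerase, stood at 2.42 and 2.41 CPM in TN, 4.34 and 3.38 for PRTN, 2.97 and 3.27 for BUTN, 4.24 and 5.63 for TNPR, and 3.75 and 4.81 for TNBU. It was called higher in PRTN, TNPR and TNBU (1.59-fold, 2.01-fold and 1.76-fold, SE 0.231 to 0.240 on the log2 scale), and was 0.37 on the log2 scale in BUTN.

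MMAB makes adenosylcobalamin, the cofactor of methylmalonyl-CoA mutase. It lies on chromosome 12 (109553715 to 109573580, minus strand). MMAB stood at 20.7 and 20.1 CPM in TN, 8.22 and 7.14 for PRTN, 7.71 and 7.97 for BUTN, 9.16 and 9.1 for TNPR, and 8.63 and 8.95 for TNBU, so that SCFA libraries and the other 4 did not overlap. The falls were 2.66-fold, 2.6-fold, 2.23-fold and 2.32-fold (adjusted p from 3.45e-07 to 1.33e-06 in limma-voom). MMAA, which loads the cofactor, was not called. The mutase itself, listed as MUT, averaged 36.0 ± 2.69 CPM in TN (SD, n = 2) and had log2 differences of 0.44, 0.17, 0.48 and 0.26, none called.

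The short- and medium-chain synthetases and the ketone body enzymes included several of the largest changes. ACSM3 rose from 2.1 and 2.01 CPM in TN to 8.13 and 8.39 for PRTN, 7.0 and 7.22 for BUTN, 8.34 and 10.2 for TNPR, and 8.21 and 6.7 for TNBU. The rises were 4.0-fold, 3.44-fold, 4.45-fold and 3.58-fold (SE 0.187 to 0.192 on the log2 scale, adjusted p from 7.57e-07 to 5.89e-06 in limma-voom). ACSM3 shares exon bases with ERI2 on the other strand, whose count equalled 191% of that of ACSM3. ERI2 had log2 differences of -0.36, -0.29, -0.36 and -0.32, and a sharing of reads was not tested.

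The acetyl-CoA synthetases went in opposite directions. ACSS2, the cytosolic and nuclear enzyme, stood at 30.6 and 30.8 CPM in TN and between 50.7 and 59.6 CPM in the SCFA libraries, a rise of 1.66-fold to 1.93-fold. ACSS1, the mitochondrial enzyme, stood at 11.7 and 11.3 CPM in TN, 4.52 and 4.44 for PRTN, 5.47 and 5.55 for BUTN, 5.09 and 4.29 for TNPR, and 5.01 and 4.35 for TNBU. It fell 2.56-fold, 2.08-fold, 2.45-fold and 2.46-fold (adjusted p from 7.36e-07 to 4.97e-06 in limma-voom). ACSS3, a mitochondrial propionyl-CoA synthetase, had 15 counts in TN and 30 to 41 per SCFA group and was called in TNPR and TNBU (log2 1.15 and 0.96), and LIN7A on the other strand, which overlaps it and has more counts, also rose. BDH1, which interconverts the 2 main ketone bodies, stood at 38.7 and 40.3 CPM in TN and between 18.9 and 23.1 CPM in the SCFA libraries, falling 1.8-fold to 2.03-fold. OXCT1, which activates acetoacetate, was not called.

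Propionate and butyrate were compared directly, 4 libraries against 4, over both times of addition. The doses differed, 15 mM against 3 mM, so the comparison is of these treatments and not of the acids at a matched dose. GCDH was the only member called, against 0.292% of all genes tested. GCDH is glutaryl-CoA dehydrogenase, of lysine and tryptophan breakdown, and lies on chromosome 19 (12891160 to 12914207, plus strand). It stood at 12 CPM in both PRTN libraries, 6.75 and 6.77 for BUTN, 13.2 and 15.4 for TNPR, and 8.6 and 9.91 for TNBU, beside 9.01 and 9.11 in TN and 8.88 and 9.41 in Ctrl. Propionate lay above both references and butyrate lay below them when added before TNF-α and around them when added after. The difference was 1.65-fold (log2 0.72, SE 0.077, 95% interval 0.56 to 0.89, adjusted p = 0.002 in limma-voom).

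Within a time of addition the GCDH difference was similar in size. It was log2 0.83 for PRTN vs BUTN (adjusted p = 0.0159) and 0.62 for TNPR vs TNBU (adjusted p = 0.128), and the difference between these, -0.21, had an adjusted p of 1.0 in limma-voom. The call in PRTN vs BUTN, where 0.168% of all genes were called, was lost without any 1 of the 4 PRTN and BUTN libraries, whereas that over both times was kept without any 1 library. Against TN, GCDH was called in TNPR alone (log2 0.65), and not without TNPR replicate 2 (0.48). SYCE2 overlaps it on the other strand, and differed by log2 -0.04 between propionate and butyrate. Against TN, SYCE2 had log2 differences of -0.029, -0.075, 0.325 and 0.459 in PRTN, BUTN, TNPR and TNBU, none called. A sharing of reads was not tested.

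ETFDH, PCCA and ECHS1 also passed the adjusted p between the SCFAs, with differences under 1.5-fold. ETFDH was higher with propionate by log2 0.40 (SE 0.055, adjusted p = 0.00512), PCCA by 0.42 (SE 0.067, adjusted p = 0.00975) and ECHS1, the short-chain hydratase, by 0.24 (SE 0.050, adjusted p = 0.0295), all from limma-voom. For each of them all 4 propionate libraries lay above all 4 butyrate libraries. The same held for 7 members in all (GCDH, ECHS1, HADHB, ETFDH, PCCA, SLC25A20 and ACADSB), where 4.12% of all genes did so. CPT1C lay lower in all 4 (log2 -0.83, adjusted p = 0.203), where 3.46% of all genes did so. The genes overlapping ETFDH and PCCA on the other strand differed by 0.05 (PPID), 0.05 (C4orf46) and -0.14 (GGACT).

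For 44 of the 47 members the 95% interval of the difference between propionate and butyrate lay within 1.5-fold in either direction. The exceptions were GCDH and the low-count ACADL and CPT1C. This covered PCCB (-0.08 to 0.13 on the log2 scale), CPT1A, ACADM, ACADS, PPARA and PPARGC1A. In TNPR vs TNBU no member was called by limma-voom, edgeR or DESeq2, 8 had an unadjusted p under 0.05, and 0.00822% of all genes were called. Replicates of these groups were further apart than those of the others, with a chi-square per gene of 15.1 in TNPR and 18.1 in TNBU against 3.17 to 6.61 elsewhere, and same-numbered libraries of the pair deviated together (r = 0.24 across genes). The part of this in the absence of calls was not tested.

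**Figure D4:**
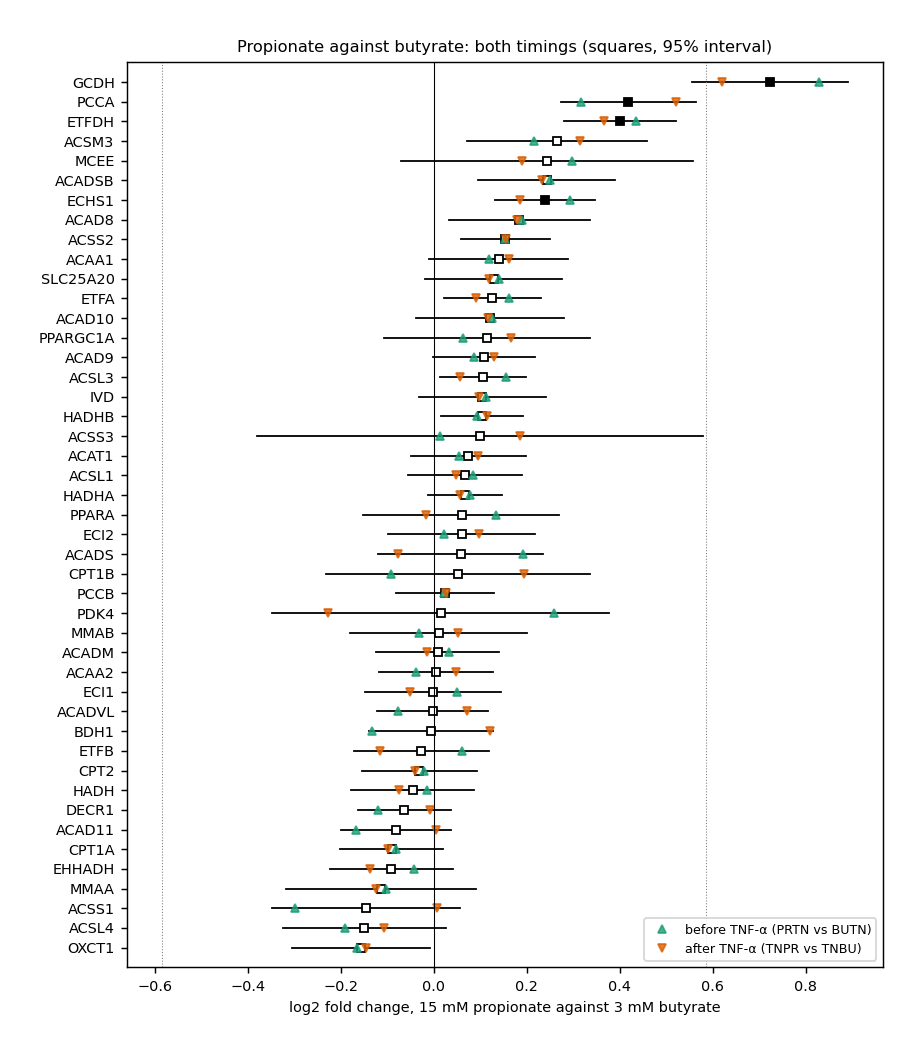
Squares give the log2 difference between 15 mM propionate and 3 mM butyrate over both times of addition for 45 members, with the 95% interval, filled where the adjusted p was under 0.05, and triangles give each time separately. CPT1C and ACADL, with few counts, are left out. GCDH lies at 0.72, PCCA, ETFDH and ECHS1 between 0.24 and 0.42, and the other members nearer to 0 or with intervals that the adjusted test did not separate from it.

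Adding the SCFA after TNF-α was compared with adding it before. No member was called by limma-voom, edgeR or DESeq2, against 0.698% of all genes, a share that would be under 1 member of 47, and 9 had an unadjusted p under 0.05. ACAA1, the peroxisomal thiolase, was higher when the SCFA came after (log2 0.42, adjusted p = 0.0068 in limma-voom). It stood at 31.4 and 30.2 CPM for PRTN, 27 and 29.7 for BUTN, 38.6 and 45.5 for TNPR, and 34.8 and 40.2 for TNBU, with no overlap. GCDH (0.35), HADH (0.25) and EHHADH (0.24) passed the adjusted p as well, under the fold threshold. Whether the propionate-butyrate difference depended on the time was tested as an interaction, which called 0.0% of all genes and no member, with 935 genes and 0 members at an unadjusted p under 0.05 in limma-voom, and no member called by edgeR or DESeq2.

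For 13 members a gene on the other strand starts within 1000 bases. PPARGC1A is counted among them from a RefSeq start (24472905) that lies outside its GENCODE interval. HADHA and HADHB start 307 bases apart, and HADHB had the higher log2 fold changes, a difference that was not tested. MMAB and MVK, the mevalonate kinase gene, start 290 bases apart. MVK had log2 differences of 0.27, 0.03, 0.51 and 0.35 while MMAB fell by over 1.1 in each group, and since exons of the pair overlap and the strand setting of the counting is not given in the sources used here, reads of the overlap could be shared. ACAD10 and BRAP start 97 bases apart, and BRAP had log2 differences of -0.16, -0.23, -0.15 and -0.26. ACADSB and ACAD8 likewise had higher log2 fold changes than their neighbours IKZF5 and THYN1 in all 4 groups, which was not tested either. Exons of 24 members overlap another gene.

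**Figure D5:**
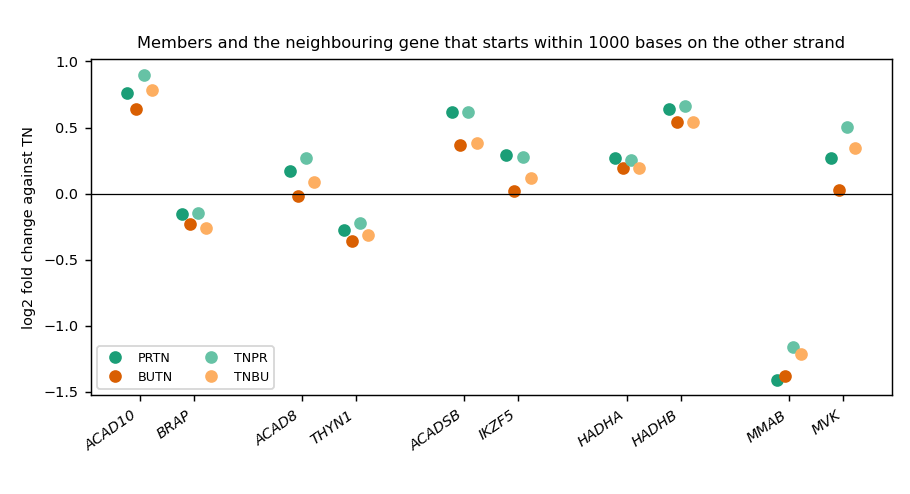
Points give the log2 fold change against TN in the 4 SCFA groups for 5 gene pairs that start within 1000 bases of each other on opposite strands. MMAB lies below -1.1 while MVK lies above 0, ACAD10 lies above 0.6 while BRAP lies below 0, and HADHB lies above HADHA.

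The 39 member promoters were searched on both strands for motifs of factors known to act on these pathways. The window of PPARGC1A is set at a RefSeq start (24472905 on chromosome 4) outside the GENCODE interval given above. No window at a start within that interval was searched. The direct repeat of AGGTCA with 1 base between, to which PPAR and RXR receptors bind, was in 0.022% of all promoters, and a relaxed form of it, AGGNCA repeated, in 0.308%, and neither was in a member. The extended receptor site TCAAGGTCA (0.359% of promoters), the sterol element TCACNCCAC (1.15%) and the NRF1 palindrome (1.36%) were in no member either. TGACGTCA (1.98%) was in that of ACAD9, and CCAAT (35.7%) was in 12. No match says only that these letters are not in these 300 bases.

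Genes around the members were read in the same fits, and their counts stand beside 23.1% to 25.0% of all genes called higher and 14.8% to 16.9% called lower in the 4 groups. Of 12 genes of methylmalonyl-CoA mutase and cobalamin handling, 1 rose in each SCFA group and 3, 3, 2 and 3 fell in PRTN, BUTN, TNPR and TNBU, or 8.33% higher and 16.7% to 25% lower. TCN2, the cobalamin carrier transcobalamin, rose from 8.86 ± 0.703 CPM in TN to 24.7 ± 0.606, 27.1 ± 0.713, 16 ± 0.264 and 18.6 ± 1.6 CPM (SD, n = 2). ABCD4, which takes part in the lysosomal export of cobalamin, fell from 28 ± 1.05 CPM to 14 ± 0.65, 16.3 ± 0.0868, 14.4 ± 1.38 and 14.7 ± 2.38 CPM.

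Of 15 genes of branched-chain amino acid breakdown, 3, 3, 5 and 3 rose (20% to 33.3%) and 2 fell in each group (13.3%), near the shares over all genes. ALDH6A1, whose product forms propionyl-CoA in valine breakdown, had the largest rise on average over the groups (log2 1.19, 0.66, 1.37 and 1.01), while HIBADH (0.82) and HIBCH (0.81) were higher in BUTN and HIBCH (1.05) in TNBU. ALDH6A1 was higher with propionate than with butyrate by 0.44 (adjusted p = 0.00392 in limma-voom), under the fold threshold. BCAT1, the cytosolic aminotransferase at the start of the route, had the largest fall (-1.64, -1.50, -1.62 and -1.50).

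Of 16 genes of peroxisomal oxidation outside the members, 7, 6, 7 and 7 (37.5% to 43.8%) were called higher by limma-voom and edgeR, and 8 in TNBU by DESeq2. None of the 16 was called lower by limma-voom, edgeR or DESeq2, with 0 lower at an unadjusted p under 0.05. These shares leave out the peroxisomal members, of which ACAA1 was called higher in TNPR alone and EHHADH in no SCFA group. ABCD2 passed the filter only through the SCFA groups, and ACOX2 had at most 2 counts in any library without SCFA, so both could hardly have been called lower. Without them 5, 4, 5 and 5 of 14 were higher. ABCD2, a transporter of very long-chain acyl-CoA, had 0 counts in TN. Against 3 counts over the TN group it was 8.39-fold, 9.59-fold, 10.7-fold and 10.6-fold higher, with lower counting limits of 6.42, 7.39, 8.25 and 8.14. Of 18 tested genes of other synthetases and fatty acid uptake, 7, 7, 7 and 9 rose (38.9% to 50%) and 2 fell in each group (11.1%). Both lists stand beside 23.1% to 25.0% of all genes called higher and 14.8% to 16.9% called lower. ACSL6, ACSM4, FABP4 and SLC27A6 passed the filter only through the SCFA groups, and 5, 5, 5 and 6 of the other 14 rose. CD36, the fatty acid translocase, rose from 3 counts in TN to 184, 159, 120 and 109 counts, which are ratios of 49.8 (16.8 to 244), 43.6 (14.6 to 213), 33.7 (11.2 to 165) and 33.9 (11.3 to 167). ACSL5, a further long-chain synthetase, fell the most (log2 -2.06, -1.82, -1.92 and -1.94).

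Among 22 tested PPAR partners and targets, 7, 5, 6 and 5 rose (22.7% to 31.8%) and 5, 3, 3 and 3 fell (13.6% to 22.7%), within 10 percentage points of the shares over all genes. ESRRG, an orphan receptor of oxidative tissues, had 0 counts in Ctrl and TN and 13 to 19 per SCFA group. This was 3.65-fold to 5.91-fold more than 3 counts over the TN group, with lower counting limits of 2.56 to 4.35. ESRRG passed the filter only through the SCFA groups, so it could not have been called lower, and 6, 4, 5 and 4 of the other 21 rose. PPARD, a receptor named here after its values were seen, rose from 24.1 ± 0.131 CPM in TN to between 65.1 ± 3.48 and 75.4 ± 1.95 CPM. NRF1, a factor of mitochondrial biogenesis, fell (log2 -0.86, -0.67, -0.95 and -0.72). Of 6 tested genes of ketone body synthesis and export, 1, 2, 1 and 1 rose, with HMGCLL1, an HMG-CoA lyase, leading (log2 3.26, 3.00, 2.89 and 3.01), and AACS was called lower in BUTN (-0.59). Of 12 tested fatty acid synthesis genes none was called in any of the 4 groups by limma-voom, edgeR or DESeq2, while 10, 7, 7 and 6 had an unadjusted p under 0.05 in limma-voom. Their median log2 fold changes were 0.03, -0.10, 0.00 and -0.02.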

How the data were processed

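RNA of 12 HK2 libraries was prepared with a stranded poly(A) kit. The authors aligned reads to GRCh38 with STAR (2.6.1a in the submitters' processing notes, with FastQC 0.11.5) and counted with RSEM on GENCODE release 26. The deposited files hold expected counts for each gene, neither scaled nor filtered, and 19.3% are not whole. RSEM divides reads between similar genes, and its strand setting is not given in the sources used here.

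Genes with a geometric mean of at least 1 count (1 added to each count, then subtracted) were kept. limma 3.58.1 with voom, TMM factors of edgeR 4.0.16 and 6 group means over all libraries gave the tests, in R 4.3.3 (prior degrees of freedom 6.12), with Benjamini-Hochberg adjustment over the 24342 genes. The median standard error of a member was 0.095 to 0.099 against Ctrl or TN. edgeR and DESeq2 1.42.0 on rounded counts were alternatives, beside other scalings, filters, fold thresholds, groups in the fit, Ctrl as reference, the replicate block and leaving out libraries. Counts give intervals for counting error at a level of 95%.

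Members and lists were chosen with earlier results of these data known. Named genes are, per contrast, the 4 largest called rises and falls with at least 1 CPM and no overlap, 8 genes always described, members with few counts, and the largest called rise and fall of each further list, and other members are named to account for the set. The numbers of the replicates did not serve as pairs, because deviations of same-numbered libraries correlated from -0.0791 to 0.24, with 1 of 15 pairs of groups over 0.1. Gene positions come from GENCODE release 44. Proteins were not analysed here.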

Additional observations from a re-analysis of the deposited data

How the results depend on the processing

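The direction of no called value was reversed under any alternative run. Counts of members called moved by over 1.5 times mainly with the fold threshold. At over 2-fold, 6 members rose and 4 fell in PRTN, 5 and 4 for BUTN, 8 and 3 for TNPR, and 5 and 4 for TNBU, and 0 were called in TN vs Ctrl, in propionate vs butyrate and in PRTN vs BUTN. Without a fold threshold the counts were 20 and 17, 16 and 16, 24 and 17, and 22 and 16, with 2 in TN vs Ctrl, 4 in propionate vs butyrate, 2 in PRTN vs BUTN and 4 in after vs before. edgeR called 2 members in TN vs Ctrl, ACSM3 (log2 -0.77) being the addition.

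Leaving out each library in turn gave 10 to 12 rises and 7 to 9 falls in PRTN, 8 to 10 and 7 to 8 in BUTN, 10 to 16 and 6 to 10 in TNPR, 9 to 12 and 7 to 9 in TNBU, 1 to 1 in TN vs Ctrl and in propionate vs butyrate, 0 to 1 in PRTN vs BUTN, and 0 elsewhere. Leaving out a library also changed the genes kept and the scaling. Without any 1 library of PRTN or BUTN, the median log2 fold change over all genes in TNPR vs TN was 0.063 to 0.064. With all libraries it was 0.118. The cause of these moves was not tested. An arm with 1 library was assumed to vary like the others. For the genes fixed by the naming rule, in TN vs Ctrl, the comparisons with TN and propionate vs butyrate over both times, 7 combinations of a gene, a comparison and a setting gained a call, 2 lost it and 2133 did neither. ACADS in BUTN was called with the default filter of edgeR (-0.59), without TN replicate 1 (-0.75) and without BUTN replicate 1 (-0.62).

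With the replicate number as a block, every count of members called was the same as without it, at 1 in TN vs Ctrl, 12 and 7 for PRTN, 9 and 7 for BUTN, 15 and 6 for TNPR, 12 and 8 for TNBU, 1 in propionate vs butyrate, 1 in PRTN vs BUTN and 0 elsewhere. Since the numbers do not pair the libraries, the block was used only here. With 2 replicates per group, differences near 1.5-fold and genes under 50 counts are the least certain.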
